A study of Mus musculus with 12 samples.

Results

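The steady-state transcriptome of alveolar macrophages was described from the 4 libraries of naive mice in a series of 12 RNA-seq libraries from a murine lung transplant model. The other 8 libraries, 4 each at 2 h and 24 h after reperfusion, enter no comparison here. The naive libraries came from lung alveolar macrophages of male mice aged 14 weeks with the genotype Cx3cr1gfp/+B6, in which an allele of the fractalkine receptor gene carries GFP. All groups of the series share this genotype, so none of these libraries stands for mice with both Cx3cr1 alleles intact. No transplant or treatment is given for the naive mice. The labels do not say how the cells were purified, or whether each library came from a separate mouse, so the spread between libraries may be technical.

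Alveolar macrophages are the resident phagocytes of the air spaces. They take up and break down pulmonary surfactant, clear inhaled particles and dying cells, and are known to depend on the growth factor GM-CSF, on TGF-beta and on the nuclear receptor PPAR-gamma for their differentiation. Their surface is known for high CD11c and Siglec-F and low CD11b. They share with other macrophages a large lysosomal apparatus and myeloid transcription factors, and differ from them in lipid-handling genes.

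Values are given below for replicates 1 to 4 in that order, or as mean ± SD with n = 4. They are RPKM, the reads of a gene scaled by its length in kilobases and by the size of the library in reads, as deposited. The library totals were 8796071, 7929554, 7484170 and 6112586 reads for replicates 1 to 4, and 3 reads in a gene of 1 kb corresponded to 0.341, 0.378, 0.401 and 0.491 RPKM. A gene was called detected when its RPKM was at least 1 in all 4 libraries. By this rule 10091 of 43430 genes (23.2%) were detected, among them 9006 of 21474 protein-coding genes (41.9%), which is the background for the gene lists below. A further 665 protein-coding genes reached 1 RPKM in 1 to 3 libraries and 11803 in none. Near the threshold, 66 protein-coding genes had a lowest value from 1 to below 1.05 RPKM and 86 from 0.95 to below 1. The log2(RPKM + 1) values of the detected genes had a Pearson r of 0.990 to 0.993 between libraries, across genes, which are not independent. Genes of the mitochondrial genome took 1.04 to 1.25% of the reads. For the label male, the Y-linked genes Ddx3y (10.5 ± 0.709 RPKM) and Eif2s3y (7.09 ± 2.3 RPKM) were detected and Xist, the RNA of the inactive X chromosome, was not (0 to 0.0175 RPKM).  Genes of the lists named for their role, beyond the highest and lowest members, were chosen after their values were seen.

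A limit on comparing genes with each other lies in the gene lengths behind the RPKM. The reads and lengths could be recovered from the values, and among 10030 detected genes with an annotation the length used equalled the summed exons of all annotated transcripts, counted without merging shared exons, in 54.3% and the merged exons in 12.2%. The median ratio of the length used to the merged exon length was 1.37, with 10th and 90th percentiles of 0.614 and 2.91. Siglecf was scaled by 9572 bases where its merged exons span 2790, and Fth1 by 866 bases where they span 3469. The means of some genes are therefore given also per merged exon length. Orders within lists are on the deposited scale unless stated, and in 18 of the 49 lists the highest member was another gene per merged exon length. On the merged scale 8880 protein-coding genes were detected as well, 703 were detected only there and 126 only on the deposited scale. The levels of genes on both scales had a Spearman rho of 0.823.

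The identity list held 30 genes known from alveolar macrophages, and all 30 were detected, against 41.9% of protein-coding genes. Its members were chosen with earlier results of these data known, so this count is a description only. Chil3, which encodes the chitinase-like lectin Ym1, stood at 7923, 7610.5, 8119.6 and 7469 RPKM and ranked 2 among all genes. The eosinophil-associated ribonuclease gene Ear2 followed in the list at 1742, 1757, 1741 and 2011. Replicate 4 was above the other libraries for Ear2 and lowest for Chil3. Ccl6, a chemokine gene, averaged 1415 ± 93.7 RPKM, the tetraspanin gene Cd9 989.7 ± 39.5, and the cholesterol exporter gene Abcg1 655 ± 14.3. Itgax, the CD11c integrin chain, stood at 401, 406, 387 and 389 and Mrc1, the mannose receptor, at 313, 355, 324 and 317. Siglecf, the sialic acid-binding receptor often used to identify these cells, stood at 54.5, 60.7, 57.1 and 61.1 RPKM. On mm10 these landmark genes lie at chr3:106147554-106167564 for Chil3, chr14:44102654-44103534 for Ear2, chr7:128129547-128150657 for Itgax, chr2:14229392-14332057 for Mrc1 and chr7:43351341-43359531 for Siglecf.

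Of the identity genes with a role in lipid handling, Fabp1, a fatty acid-binding protein gene best known from liver and gut, had the highest level in the Fabp family at 329, 386, 317 and 348 RPKM. Its relatives Fabp5 (25.7 ± 1.95) and Fabp4 (12 ± 1.71) were lower on this scale and at 30.5 and 13.7 per merged exon length, where Fabp1 stayed at 345. The ranges of Fabp1 and of both relatives lay apart. Pparg, the nuclear receptor gene, stood at 63.9, 62.3, 72.3 and 68.8 RPKM. Car4, a carbonic anhydrase gene, stood at 99.8, 90.4, 116 and 92.9 and Marco, a scavenger receptor gene, at 106, 92.3, 81.4 and 100.4. The epithelial-type keratin genes Krt79 (286 ± 25.7) and Krt19 (270.3 ± 16.9) and Cdh1 (10.3 ± 1.05), the E-cadherin gene, were detected in every library.

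Ordered by mean RPKM, 16 of the 29 neighbouring pairs of identity genes had ranges that lay apart and 13 overlapped. From Chil3 down to Itgax the order was clear in all libraries, whereas Fabp1, Ear1 and Mrc1 overlapped, as did Krt79, Krt19, Ctsk and Lpl, and the run of Perp, Cd2, Cidec, Car4, Marco and Olr1. Per merged exon length only 12 pairs lay apart. Siglecf then stood at 200.1, its range overlapping that of Car4 at 207, and Krt79 at 126. Chil3 was first at 9888 and Fabp4 was last at 13.7.

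**Figure D1:**
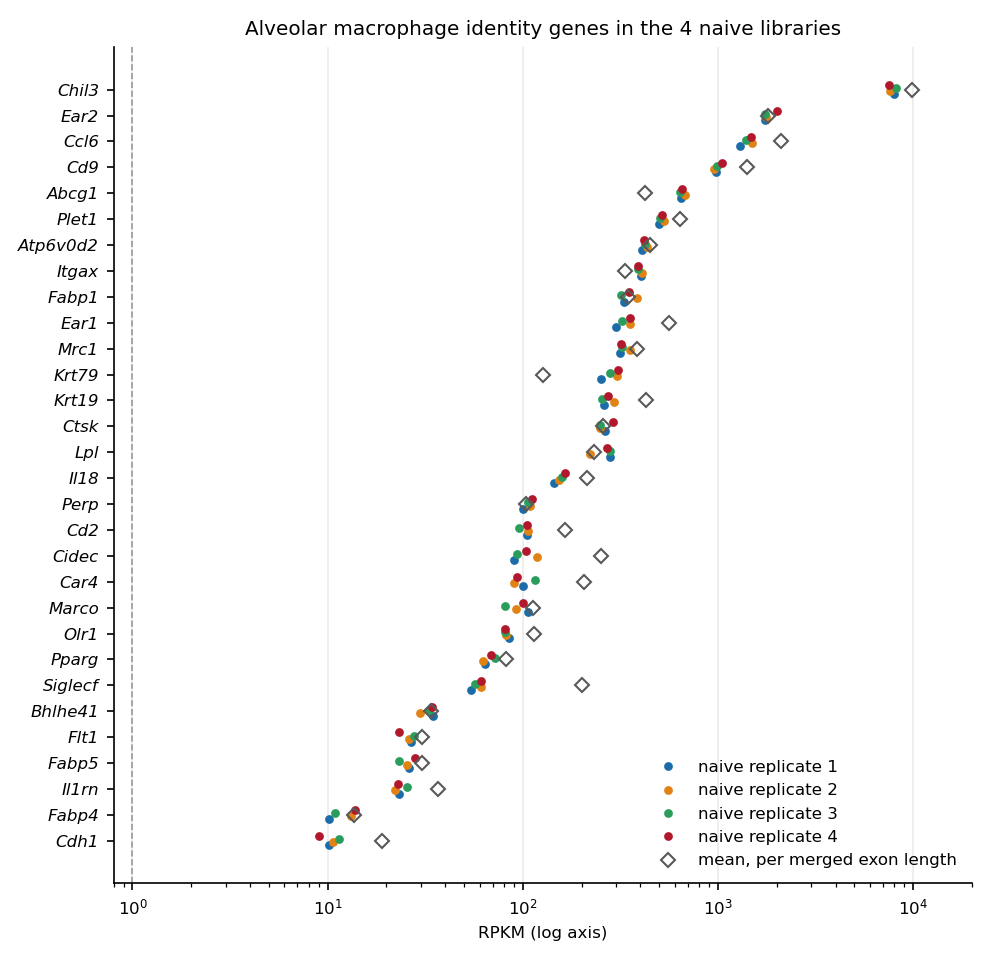
RPKM (log axis) of the 30 identity genes. Coloured points are the 4 naive libraries, open diamonds the mean per merged exon length, and the dashed line marks 1 RPKM. All 120 values lie above 1, and Siglecf is the gene with the widest gap between its points and its diamond.

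Sequences just upstream of some identity genes are shown, chosen because they carry the letters of binding motifs of myeloid factors that were detected (below). They come from RefSeq on GRCm38.p6, the assembly of mm10, 100 bases ending just before the start given by RefSeq, 5′ to 3′ on the strand of the gene. The gene positions above come from another annotation, GENCODE, whose starts for Mrc1 and Itgax lie inside these stretches. Capitals mark matches on either strand. The letters searched were GAGGAA for the core bound by PU.1, the product of the Spi1 gene. For the C/EBP family they were TTGCNNAA, where N is any base. For the AP-1 family of Fos and Jun proteins they were TGANTCA. For the TATA box of core promoters they were TATAAA. None of these contains another. Some identity genes, among them Chil3, Ccl6 and Cd9, held none of these letters in the 250 bases upstream and are not shown. Cidec, Plet1, Pparg, Flt1, Marco, Il18 and Il1rn held matches there, some at only part of their promoters, and are not shown either. The first pair are the paralogs Ear1 and Ear2, with a C/EBP match in each.
Ear1, chr14:43819640-43819739, minus strand: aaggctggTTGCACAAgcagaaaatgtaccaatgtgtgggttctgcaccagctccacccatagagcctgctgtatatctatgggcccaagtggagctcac
Ear2, chr14:44102554-44102653, plus strand: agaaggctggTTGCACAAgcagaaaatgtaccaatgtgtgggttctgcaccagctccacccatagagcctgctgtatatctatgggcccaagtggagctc
Ctsk, the cathepsin K gene, held a C/EBP and a PU.1 match, and Fabp1 a PU.1 and a TATA match.
Ctsk, chr3:95499110-95499209, plus strand: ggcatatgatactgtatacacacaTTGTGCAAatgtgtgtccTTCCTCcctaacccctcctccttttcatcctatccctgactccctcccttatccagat
Fabp1, chr6:71199779-71199878, plus strand: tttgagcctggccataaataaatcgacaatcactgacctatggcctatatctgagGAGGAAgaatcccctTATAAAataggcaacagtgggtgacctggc
Mrc1 and Siglecf each held a PU.1 match, Itgax an AP-1 match, and Olr1, an oxidised-lipoprotein receptor gene, both.
Mrc1, chr2:14229314-14229413, plus strand: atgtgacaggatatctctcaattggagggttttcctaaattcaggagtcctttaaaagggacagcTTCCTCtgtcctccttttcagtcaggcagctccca
Siglecf, chr7:43351241-43351340, plus strand: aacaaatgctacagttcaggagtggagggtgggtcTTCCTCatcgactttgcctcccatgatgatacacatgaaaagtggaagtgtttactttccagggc
Itgax, chr7:128129450-128129549, plus strand: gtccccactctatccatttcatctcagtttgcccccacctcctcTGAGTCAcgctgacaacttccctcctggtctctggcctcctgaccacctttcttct
Olr1, chr6:129507166-129507265, minus strand: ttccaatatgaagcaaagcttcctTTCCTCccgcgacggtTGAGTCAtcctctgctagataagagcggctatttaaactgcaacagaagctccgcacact

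Over 98 overlapping bases, Ear1 and Ear2 were identical upstream (98 of 98), while their levels were 332 ± 26.2 and 1813 ± 132 RPKM, or 561 and 1813 per merged exon length. Ear10 matched Ear2 at 84 of 96 bases (87.5%) and was not detected, at 0.395 ± 0.229 RPKM. Ear6 matched at 61 of 97 bases (62.9%) and stood at 2.29 ± 0.352. Reads of such close copies can be split or dropped in counting, so the levels within this family are uncertain.

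The RefSeq table held 26 promoters of 21 of the 30 identity genes. In the 250 bases upstream, 8 of the 26 (30.8%) held the PU.1 core, against 23.3% of all 32841 promoters. The longer PU.1 letters GAGGAAGT were in 0 of the 26, against 2.44% of all promoters. The C/EBP letters were in 7 (26.9%), against 9.57%. These 7 included Ear1 and Ear2, which were identical over 98 bases upstream. AP-1 letters were in 5 (19.2%) against 6.75%, and TATA letters in 5 (19.2%) against 12.4%. For the 9124 promoters of detected protein-coding genes the shares were 22.8% for the PU.1 core and 2.75% for the longer PU.1 letters. They were 7.68% for C/EBP, 4.07% for AP-1 and 5.87% for TATA. Promoters of protein-coding genes listed at 0 in all 4 libraries held TATA letters in 23.1% and the GC box GGGCGG in 16.3%. Among those detected 59.5% held a GC box. The promoters of genes listed at 0 held C/EBP letters in 12.1% and AP-1 letters in 10.2%, both above the shares of those detected. They held the PU.1 core in 21.5% and the longer PU.1 letters in 1.52%, both below those detected. A match is a description of letters, and no test was made of these shares.

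At the top stood Lyz2, the lysozyme gene of myeloid cells, at 13031, 13403, 13374 and 15570.5 RPKM. Replicate 4 was above the other 3 libraries. Chil3 came next, and Fth1, the ferritin heavy chain gene, was the third at 4899, 4991, 5132 and 5356, but ranked 19 per merged exon length at 1272. Besides genes of the mitochondrial genome such as mt-Co1 (2356 ± 146) and mt-Cytb (1758 ± 125), the named genes of the first 20 ranks included Tmsb4x (1682 ± 107), which encodes an actin-binding peptide, B2m (1372 ± 97.5), the light chain of MHC class I, the protease genes Ctsd (1318 ± 47) and Ctss (1203 ± 100.5), and Tyrobp (1051 ± 27.1), the adaptor of many activating receptors. With unnamed genes and clone names set aside, 16 of the 20 highest genes were also among the 20 highest per merged exon length, where Ftl1 (2094), Psap (2039), Eef1a1 (1839) and Vim (1055) took the other places. Ctsd averaged 3049 on that scale. The 10 highest genes held 16.1 ± 0.626% of the summed RPKM, the 50 highest 28.3 ± 0.975% and the 500 highest 55.0 ± 0.883%. In terms of reads, which are not divided by length, these shares were 7.56%, 16.5% and 41.1%. The median level of the 9006 detected protein-coding genes was 6.75 RPKM, with quartiles of 3.17 and 16.3, and 292 stood at 100 or above.

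**Figure D2:**
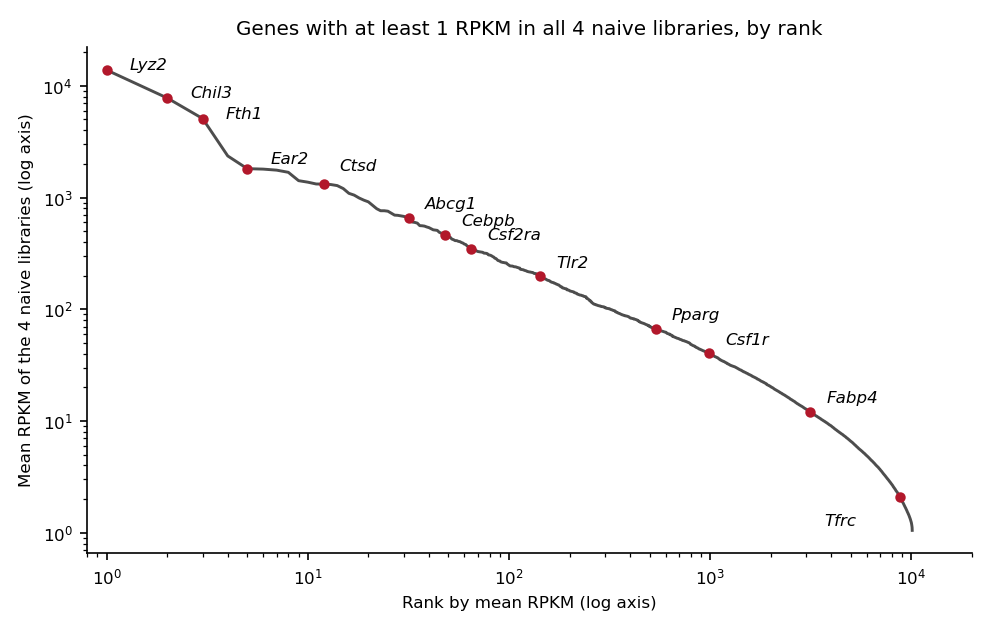
Mean RPKM of the 4 naive libraries (log axis) against rank (log axis) for the 10091 detected genes, with named genes as points. The curve falls from Lyz2 at 13845 through Ctsd at 1318 and Pparg at 66.8 to Tfrc at 2.08 near its end.

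Of 15 genes shared by most macrophages, 14 were detected. These included Laptm5 (367 ± 14.2), a lysosomal membrane protein gene, Lgals3 (225 ± 7.62), the galectin-3 gene, Cd68 (222 ± 8.11), Cd14 (113 ± 19.3), the lipopolysaccharide co-receptor gene, and Adgre1 (74.3 ± 2.58), which encodes F4/80. The exception was Aif1, the IBA1 gene, with 0.113, 0.1, 0.159 and 0.13 RPKM and 4 to 6 reads a library.

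Receptors were the first functional class. Over the receptor lists 144 of 234 genes (61.5%) were detected, 10 reached 1 RPKM in some libraries and 80 in none, 7 of them listed at 0 in all 4. Of 12 Toll-like receptor genes 8 were detected. Tlr2, for bacterial lipoproteins, led at 212, 167, 207 and 201 RPKM, followed by Tlr4 (27.5 ± 1.87), the lipopolysaccharide receptor gene, and the endosomal receptor genes Tlr8 (25.1 ± 0.973), Tlr13 (15.8 ± 2.08) and Tlr7 (15.4 ± 1.13). Tlr5, for flagellin, and Tlr6 stood at 5.37 and 4.95, and Tlr3 at 2.18. The lowest were Tlr1 (0.151 to 0.429), Tlr9 (0.0941 to 0.363), Tlr11 (0.106 to 0.142) and Tlr12 (0.0371 to 0.158), all under 1 RPKM in each library. Of 14 cytosolic sensor genes 13 were detected, with Naip5 (28.9 ± 1.52) and Tmem173 (25.5 ± 2.28), which encodes STING, at the top, and Nod2 (0.565 ± 0.041) was not. Naip2 was above Naip5 per merged exon length, at 39.5 against 28.9. Nod2 had a lowest value above 1 per merged exon length, with a mean of 1.87.

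Scavenger and lectin receptor genes were uneven. Of 16 scavenger receptor genes 9 were detected, with Cd68, Scarb2 (174 ± 8.98), a lysosomal membrane receptor gene, and Lrp1 (152 ± 9.43) highest. Msr1, the class A scavenger receptor gene, stood at 2.69, 2.91, 3.37 and 3.27, below Marco in every library. Cd163 (0.166 to 0.36), Stab1 (0.102 to 0.276) and Stab2 (0.00832 to 0.0353) were under 1 RPKM. Of 21 C-type lectin receptor genes 14 were detected, led by Mrc1, Clec7a (144 ± 23.3), which encodes the beta-glucan receptor Dectin-1, Clec4a3 (67.9 ± 4.88), Clec4n (64.1 ± 4.62), which encodes Dectin-2, and Clec2d (53.8 ± 3.14). Clec4g was listed at 0, and Clec4f (0.0102), known from Kupffer cells, and Mrc2 (0.0121) were close to it.

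Among Fc and complement receptors 10 of 16 were detected. Itgax was highest, then the neonatal Fc receptor gene Fcgrt (220.3 ± 2.17), the Fc receptor gamma chain gene Fcer1g (217 ± 7.92), C5ar1 (88.8 ± 8.86), the receptor gene for complement C5a, and Fcgr3 (79.4 ± 4.0). Fcer1g (426) was above Itgax (333) per merged exon length. Itgam, which encodes CD11b, stood at 0.136, 0.132, 0.195 and 0.239 RPKM, or 0.934 on average per merged exon length. Vsig4 (0 to 0.145), Cr2 (0.0388 to 0.0976) and C3ar1 (0.264 to 0.418) were under 1, and Fcer1a was listed at 0. Of 22 Siglec and paired receptor genes 20 were detected. Besides Tyrobp these included Sirpa (84.9 ± 2.95), the CD47 receptor gene, Siglec1 (51.4 ± 2.82), Pilra (47.3 ± 5.2), Cd33 (34 ± 1.51) and Trem2 (4.56 ± 0.318). Siglecg (0.14 to 0.304) and Siglech (0.00883 to 0.0784) were not.

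Growth factor receptors included the chains of the GM-CSF and TGF-beta receptors. Csf2ra, the GM-CSF receptor alpha chain gene, stood at 389, 333, 350.5 and 313 RPKM. The common beta chain gene Csf2rb stood at 197, 187, 189 and 189, and Csf2rb2, the mouse IL-3 beta chain gene, at 56.2 ± 2.08. Csf1r, the M-CSF receptor gene, stood at 39.6, 39.4, 39.2 and 42.5, below Csf2ra in all libraries. Per merged exon length the means were 223 for Csf2ra, 125 for Csf2rb and 59.6 for Csf1r. Tgfbr2 (67.5 ± 1.9), Tgfbr1 (47.7 ± 2.26) and Acvr1b (37.9 ± 1.02) represented the TGF-beta and activin receptors. In total 16 of 24 genes of this list were detected, and Egfr (0.0137), Tgfbr3 (0.0183) and Met (0.0274) were lowest.

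For the uptake of dying cells, 7 of 14 receptor genes were detected. Axl, a kinase that binds Gas6, stood at 164, 163, 157 and 162 RPKM, and Mertk, which binds Gas6 and protein S, at 74.9, 81, 74.2 and 79.9. The ranges lay apart. Tyro3, the third member of this family, stood at 0.00854 to 0.0462. Itgb5 (34.1 ± 0.52), Havcr2 (31.5 ± 1.04), which encodes TIM-3, and Cd300lf (23.7 ± 2.35) followed, while Timd4 (0.369 to 0.464), Havcr1 (0.0219) and Adgrb1 (0.00538) were under 1.

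Of 35 cytokine receptor genes 21 were detected. Highest were Il17ra (105 ± 8.8) and Tnfrsf1b (104 ± 5.6), the second TNF receptor gene, then Crlf2 (62.5 ± 3.21), a chain of the TSLP receptor, Il6ra (50.5 ± 2.01) and Ifngr1 (48 ± 2.31). Il17ra averaged 48.3 per merged exon length, below Tnfrsf1b (114), Ifngr1 (79.8) and Tnfrsf1a (76.2). Both chains of the IL-4 and IL-13 receptor, Il4ra (43.9 ± 0.77) and Il13ra1 (40.5 ± 2.25), were detected, as were Il10ra (10.3 ± 0.682) and Il10rb (8.45 ± 0.112). Il1r1 (0.382 to 0.623), Il1r2 (0 to 0.0743) and Il1rl1 (0.0432 to 0.0896), the IL-33 receptor gene, were under 1, and Osmr was listed at 0. Of 24 chemokine receptor genes 7 were detected (29.2%, under the background). They included Ccr1 (58.8 ± 7.17), Cxcr4 (41.5 ± 5.16), Ccrl2 (14.9 ± 4.39), Cxcr1 (5.41 ± 1.13), Ccr7 (1.8 ± 0.176) and Ccr2 (1.41 ± 0.228). Cxcr4 averaged 62.2 per merged exon length and Ccr1 58.7. Cx3cr1 stood at 0.198, 0.0916, 0.252 and 0.214 with 5 to 13 reads a library, in mice that carry GFP in an allele of it. Ccr3 and Ccr8 were listed at 0.

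Among 40 lipid, purine and other G protein-coupled receptor genes 21 were detected. The formyl peptide receptor gene Fpr1 was highest at 292, 270.4, 259 and 297 RPKM, with Fpr2 at 104, 106, 102 and 110.4. Adgre1 came next among the rest, and lower were P2ry13 (54.2 ± 5.08), a purine receptor gene, and Hcar2 (51.5 ± 5.47), the niacin receptor gene. Ptger1 (26.2 ± 1.63) and Ptger2 (14.4 ± 1.23) were the prostaglandin E2 receptor genes with the highest levels. The lowest were Ptger3 (0.00766), Adora1 (0.00827) and Lpar1 (0.00886).

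Over the transcription factor lists 96 of 159 genes (60.4%) were detected and 60 were under 1 RPKM in all libraries. Of 48 nuclear receptor genes 20 were detected (41.7%, at the background). Pparg led, followed by Rxra (33.9 ± 1.78), its dimer partner gene, Rara (17.8 ± 1.23), Esrra (13.9 ± 1.04) and Nr4a1 (10.6 ± 2.13). Pparg did not lead per merged exon length, with 82 against 82.9 for Rxra. Ppard stood at 5.78 ± 0.562, and Ppara was listed at 0 in all 4 libraries, where 3 reads would have given 0.0379 to 0.0546 RPKM. The oxysterol receptor genes Nr1h2 (6.21 ± 0.259) and Nr1h3 (4.89 ± 0.197) were detected, as were Vdr (9.6 ± 1.37) and the glucocorticoid receptor gene Nr3c1 (9.07 ± 0.369). Nr1h3 averaged 22.8 per merged exon length.

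Myeloid lineage factors were led by Cebpb at 496, 437, 446 and 462 RPKM and Cebpa at 228, 231, 206 and 209, both genes of the C/EBP family. Spi1, the PU.1 gene, stood at 134, 133, 142 and 133. Tfec (100.2 ± 7.86), a relative of the lysosomal regulators Tfeb (4.8 ± 0.604) and Mitf (5.17 ± 0.388), and Bhlhe40 (82.9 ± 8.31) completed the 5 highest. Per merged exon length the means were 460.4 for Cebpb, 218 for Cebpa and 181 for Spi1. In all 28 of 39 were detected, and Cebpe and Gata1, which act in granulocyte and erythroid differentiation, were listed at 0. Of 13 factors that mark other tissue macrophages only 4 were detected, namely Id1, Id3, Nr1h3 and Nr4a1. Gata6 (0.0128), which acts in peritoneal macrophages, Sall1 (0.00779), which acts in microglia, and Spic (0.245), which acts in red pulp macrophages, were not, and Sall3 was listed at 0.

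In the MAF and MYC list, 11 of 16 were detected. Maf stood at 0.19, 0.224, 0.474 and 0.324 RPKM, under 1 in each library. The small MAF genes Maff (13 ± 1.74), Mafg (11.6 ± 0.581) and Mafk (7.33 ± 0.303) were detected, as were Mxd4 (28.3 ± 2.13), Max (14.1 ± 0.493) and Myc (5.58 ± 0.764). Myc averaged 29.9 per merged exon length, above Mxd4 at 16.8. Of 25 KLF, EGR and AP-1 genes 19 were detected. Fos (213, 259.8, 214 and 270.2) was the highest, then Junb (159 ± 23), Klf6 (107 ± 6.36), Jund (103 ± 8.36) and Atf4 (79.9 ± 3.18). Immediate early genes of this kind are known to be induced while cells are isolated. All 24 genes of the immediate early and heat shock list were detected, with summed RPKM of 1487, 1661, 1487 and 1750.1, and the part of handling in these levels was not tested. Of 26 STAT, IRF, NF-kappaB and SMAD genes 18 were detected, led by Stat6 (50.9 ± 2.1), which signals for IL-4 and IL-13, Rela (37.7 ± 2.2), Irf2 (36.4 ± 0.824), Stat3 (12.9 ± 0.822) and Nfkb1 (11.7 ± 0.597). Irf7 (0.284 ± 0.0552), Smad3 (0.18 ± 0.0546) and Stat4 (0.125 ± 0.046) were under 1 in each library.

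**Figure D3:**
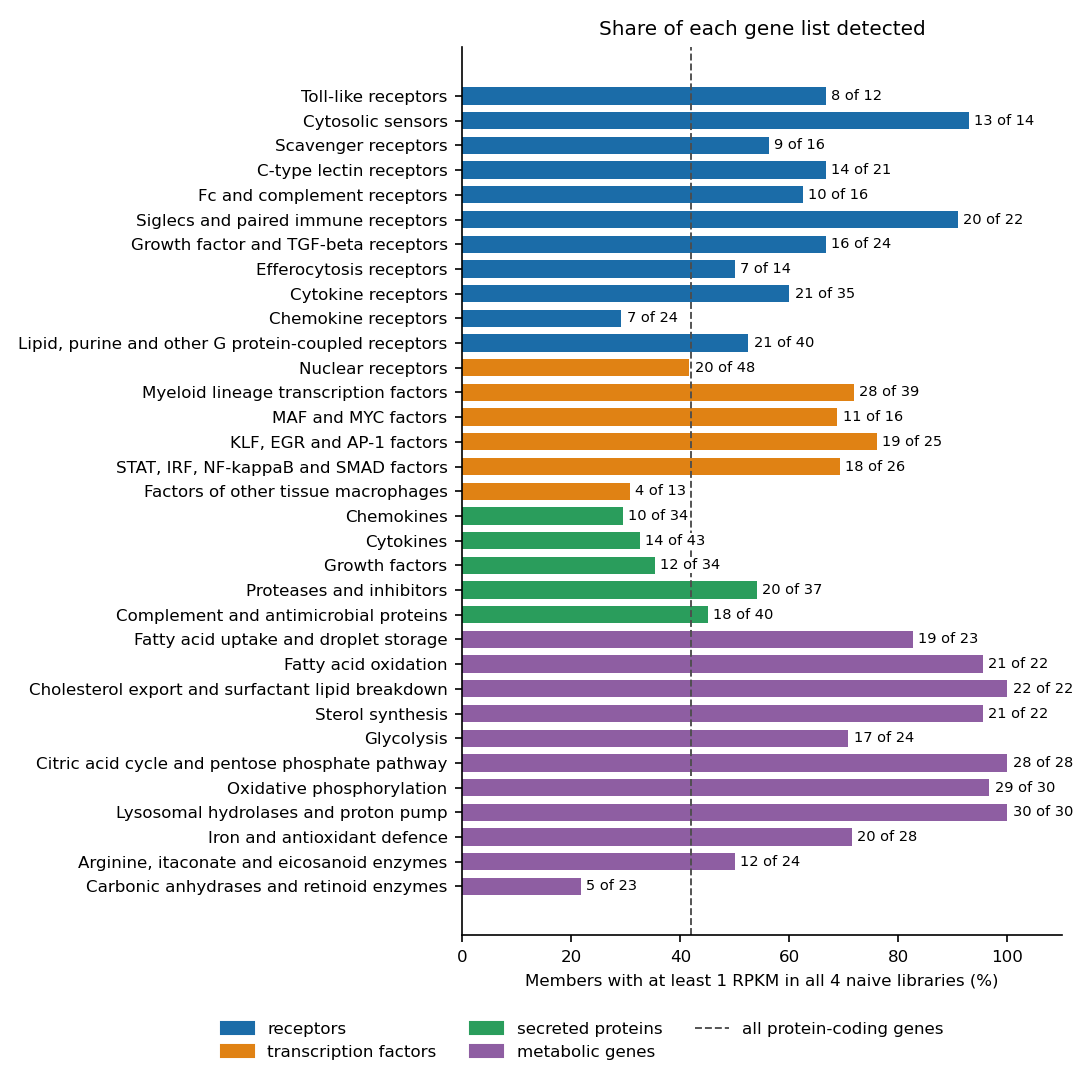
Share of the members of each list with at least 1 RPKM in all 4 naive libraries (%, bars, with counts), coloured by class. The dashed line is the share of all protein-coding genes, 41.9%, and chemokine receptors, chemokines and carbonic anhydrases are among the lists below it, while all 30 lysosomal genes were detected.

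Of the secreted proteins, 74 of 188 genes (39.4%) were detected, a share close to the background, and 27 were listed at 0. Among 34 chemokine genes 10 were detected. Ccl6 stood at 1289.6, 1492, 1398 and 1481, and the next, the neutrophil attractant gene Cxcl2, at 18.6, 33.3, 24.6 and 39.9. Ccl3 (10.2, 12.5, 13.8 and 21.6), Ccl9 (13.2 ± 2.49) and Cx3cl1 (12.3 ± 0.248) followed. For Cxcl2 and Ccl3 replicate 4 was highest and replicate 1 lowest. Ccl2 (0.596 to 2.18), which attracts monocytes, stayed near 1 and Ccl7 (0 to 0.315), Cxcl9 (0.47 to 0.695) and Cxcl10 (0.375 to 0.848) stayed low. Ccl1, Ccl11 and Cxcl5 were among the 7 listed at 0.

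Of 43 cytokine genes 14 were detected. Il18 was the highest at 144, 154, 159 and 165 RPKM. Mif (43 ± 3.85), Osm (19.3, 14.4, 26.3 and 36.3), the oncostatin M gene, Il1rn (23.4 ± 1.51), which encodes the IL-1 receptor antagonist, and Il1a (18.1 ± 3.81) followed. Il1b (5.5 ± 1.06), Tnf (4.79 ± 0.868) and Il27 (5.33 ± 0.538) were detected at low levels. Il6 (0 to 0.301), Il12b (0.043 to 0.298) and Il23a (0 to 0.0983) were under 1 RPKM in each library. Il10 was listed at 0 in all 4 libraries, where 3 reads would have given 0.261 to 0.375 RPKM, and Ifnb1, the type 2 cytokine genes Il5 and Il13, and Tslp were listed at 0 too. Il4 itself stood at 0 to 0.236.

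Growth factor genes were detected in 12 of 34 cases. Gpnmb (124 ± 7.36), a membrane glycoprotein gene, Tgfb1 (103, 103, 105 and 105), Grn (103 ± 4.13), the progranulin gene, and Pros1 (91.4 ± 2.62), which encodes protein S, a ligand of Mertk, were highest. Spp1, the osteopontin gene, stood at 41.5 ± 1.72. Grn (277) and Spp1 (187) were above Gpnmb (72.1) per merged exon length. Gas6, the ligand of Axl, stood at 0.0973 to 0.883 and was not detected. Vegfa (0.0142 to 0.0815), Csf1 (0.0353 to 0.125) and Csf2 (0 to 0.167) were under 1 in each library, and Csf3, Vegfc and Tgfa were listed at 0. Igf1 (0.69 to 0.916) was under 1 on the deposited scale and above it per merged exon length, at a mean of 1.25.

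Proteases and their inhibitors were detected in 20 of 37 cases. Ctsd stood at 1324, 1331, 1252 and 1364 and Ctss at 1111, 1170.4, 1184 and 1346, then Ctsz (508 ± 14.9), Ctsb (306 ± 8.02) and Ctsk. F7, which encodes coagulation factor VII, stood at 284, 244, 274 and 238 RPKM. Plaur (247 ± 15.3), the urokinase receptor gene, the cystatin genes Cstb (237 ± 18.5) and Cst3 (181 ± 10.3), Slpi (145 ± 18.1) and Mmp19 (107 ± 10.6) were also above 100. Mmp12 (0.579 to 0.797), the macrophage elastase gene, and Mmp9 (0.022 to 0.219) were under 1, and Mmp12 averaged 1.25 per merged exon length. Elane, Serpinb2, Serpina1a and Mmp3 were listed at 0.

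In the complement and antimicrobial list 18 of 40 genes were detected. Besides Lyz2, Chil3, Ear2 and Ear1, Wfdc21 (158 ± 22.9), S100a1 (87.2 ± 10.7), the properdin gene Cfp (65 ± 3.05) and C3 (39.5 ± 2.95) were highest. The C1q chain genes, high in many other tissue macrophages, stood at 2.4, 4.37, 3.08 and 4.09 for C1qa, 2.72 for C1qb and 1.45 for C1qc. Lyz1 (4.82 ± 1.14), a close copy of Lyz2, and Chil4 (0.611 ± 0.188), a close copy of Chil3, were far below their copies, with the reservation that reads of such copies can be misassigned. Apoe stood at 11.5 ± 1.81, and Retnla (0 to 0.67), Lcn2 (0 to 0.0908) and Cd5l (0.0155) were under 1.

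Metabolic genes were the class with the highest share detected apart from the identity and handling lists, 223 of 275 (81.1%). All 22 genes of cholesterol export and surfactant lipid breakdown were detected. Abcg1 stood at 648, 675, 642 and 655, above its relative Abca1 at 30.4, 29.2, 27.6 and 35.4 in every library, and the means were 421 and 32.7 per merged exon length. Psap (425 ± 10.6), the precursor of the saposins that assist sphingolipid breakdown, Pla2g15 (244, 239.9, 249 and 227), a lysosomal phospholipase gene, Lipa (139 ± 4.28), the acid lipase gene, and Npc2 (134 ± 6.0), a lysosomal cholesterol carrier gene, came next. Psap, at 2039 per merged exon length, was above Abcg1 on that scale. Of 23 genes of fatty acid uptake and storage 19 were detected, led by Fabp1, Lpl (278, 222, 279.9 and 269), the lipoprotein lipase gene, Plin2 (184, 231, 188 and 218), a lipid droplet coat gene, Cidec (101 ± 12.8) and Plin3 (68.4 ± 2.72). Plin2 (402) was above Fabp1 (345) per merged exon length. Plin4 (0.0358) and Fabp3 (0.088) were lowest.

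Fatty acid oxidation was represented by 21 of 22 genes. Cpt1a, the carnitine transferase that admits long-chain fatty acids to mitochondria, stood at 148, 148, 143 and 144, and its muscle form Cpt1b at 0 to 0.295. Etfb (67.3 ± 3.36), Acaa2 (51.5 ± 0.447), Etfa (38.4 ± 1.44) and Hadha (33.8 ± 1.38) followed, and per merged exon length Etfb (97.9) was above Cpt1a (81.9). Of 22 sterol synthesis genes 21 were detected, with Hmgcs1 (45.5 ± 2.6) and Mvd (42.5 ± 2.76) highest (32 and 40.2 per merged exon length) and Mvk at 1.19 ± 0.137. The exception, Tm7sf2 (0.649 ± 0.0462), was detected per merged exon length only. All 28 genes of the citric acid cycle and pentose phosphate pathway were detected, the highest being Taldo1 (209, 213, 204 and 209) of the pentose phosphate pathway, then Cs (70.1 ± 1.68), the citrate synthase gene, and Sdhd (69 ± 2.45). Of 30 nuclear genes of oxidative phosphorylation 29 were detected, led by Cox6b1 (223 ± 16.8), Cox8a (212 ± 6.67) and Cox5a (187 ± 14.4), while per merged exon length Cox6b1 (159) was below Cox6a1 (187) and Cox8a (187). Cox4i2 (0 to 0.234), the alternative form of Cox4i1 (60.3 ± 5.14), was not.

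Glycolysis genes were detected in 17 of 24 cases. Pkm (149, 143, 141 and 140.0), Aldoa (88.2 ± 1.73), Pgam1 (63.5 ± 1.32), Gpi1 (62.1 ± 2.44) and Ldha (52.7 ± 1.69) were highest. Aldoa (325) was above Pkm (139) per merged exon length. Among glucose transporter genes Slc2a1 stood at 3.9, 4.06, 3.97 and 3.17, Slc2a6 at 0.637 to 0.887 and Slc2a3 at 0.156 to 0.201, and Slc2a4, the insulin-responsive transporter gene, was listed at 0. Slc2a6 was detected per merged exon length only. Hk2 (5.36 ± 0.714) and Hk3 (2.82 ± 0.0484) were the detected hexokinase genes. Hk1, at 0.977, 1.04, 0.973 and 1.1, missed the threshold in some libraries and averaged 3.1 per merged exon length.

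All 30 lysosomal genes were detected. Besides the cathepsin genes, high levels were found for Lamp1 (478 ± 17.9), Atp6v0d2 (419 ± 9.65), a proton pump subunit gene, and Hexa (363 ± 4.34). The lowest were Atp6v1h (5.55 ± 0.293), Gaa (10.9 ± 0.633) and Mcoln1 (15 ± 0.202). Of 28 iron and antioxidant genes 20 were detected. The ferritin genes Fth1 and Ftl1 (693 ± 24.9) stood beside a low transferrin receptor gene, Tfrc (1.85, 2.19, 2.06 and 2.24), and the iron exporter gene Slc40a1 (0.398 to 0.595) was under 1. Txn1 (347 ± 24.1), Gpx1 (169 ± 7.3), Sod1 (108 ± 11.8) and Prdx1 (105 ± 8.75) led the antioxidant genes, and Hmox1, which breaks down haem, stood at 53.1 ± 5.73. Sod1 averaged only 17.5 per merged exon length, below Gpx1 (399), Txn1 (347), Prdx1 (194) and Hmox1 (87.6).

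Of 24 arginine, itaconate and eicosanoid genes 12 were detected. The leukotriene branch led, with Alox5ap (468, 441, 506 and 504), the 5-lipoxygenase activating protein gene, Ltc4s (102, 94.7, 98.4 and 96), the leukotriene C4 synthase gene, Lta4h (62.5 ± 1.66) and Alox5 (32.2 ± 1.44). Of the prostaglandin and thromboxane branch, Tbxas1 (11.6 ± 0.389), the thromboxane synthase gene, the prostaglandin E synthase genes Ptges2 (3.02 ± 0.35) and Ptges (1.48 ± 0.224), Hpgd (2.39 ± 0.501), which degrades prostaglandins, and Hpgds (1.37 ± 0.304), the prostaglandin D synthase gene, were detected. Hpgds averaged 0.832 per merged exon length. The cyclooxygenase gene Ptgs2 (0.0236 to 0.111) and Ptgis (0 to 0.0515), the prostacyclin synthase gene, were under 1. The other cyclooxygenase gene, Ptgs1 (0.748 to 1.37), straddled the threshold and was detected per merged exon length only. Nos2, the inducible nitric oxide synthase gene, was listed at 0 in all 4 libraries, where 3 reads would have given 0.0818 to 0.118 RPKM. Arg1 (0.111 to 0.543) and Acod1 (0.0433 to 0.24), which makes itaconate, were under 1. Among carbonic anhydrase and retinoid genes 5 of 23 were detected, with Car4 and the retinol dehydrogenase-type gene Dhrs3 (42.2 ± 2.59) above 40 RPKM and Car5b (4.98 ± 0.433), Car13 (2.1 ± 0.198) and Rdh10 (1.53 ± 0.303) below 5. Car1, Car3, Car6 and Crabp1 were listed at 0.

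Markers of other cells were mostly low, with 32 of 141 genes (22.7%) detected, and how far other cells contributed to these libraries was not tested. In bulk RNA, few cells of another type and a low level in the macrophages themselves cannot be told apart. None of 12 genes of eosinophils, basophils and mast cells was detected, 7 were listed at 0, Prg2 among them, and Epx stood at 0.00998, giving sums of 0.340 to 0.777 RPKM per library. Of the 12 neutrophil genes 3 were detected, Mmp8 (13.1, 10.7, 13.6 and 12), S100a8 (12.8, 8.04, 11.9 and 7.93) and Csf3r (6.51 ± 0.841), while Ly6g, Camp, Ltf, Elane and Mpo were listed at 0. Their sums ranged from 26.4 to 34.9. For B cells 5 of 9 were detected, with Igkc, an antibody light chain gene, at 35.2, 20.3, 41 and 39.5 and Ighm at 5.78 ± 1.42, and sums of 32.2 to 61.1. T and NK cell genes summed to 9.97 to 14.8 with 3 of 14 detected, Gzma (2.74 ± 1.19), Trbc2 (2.54 ± 0.407) and Nkg7 (1.56 ± 0.283), and Cd3e at 0.554 to 1.02.

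The interstitial macrophage genes, 4 of 13 detected, summed to 8.95, 15.2, 15.4 and 16.1 RPKM, with replicate 1 below the rest, and Lyve1 (0.218 to 0.565), Folr2 (0.105 to 0.495) and Cx3cr1 were under 1. Of 11 monocyte genes 4 were detected, Nr4a1, Ace (4.15 ± 0.629), Treml4 (3.77 ± 0.548) and Ccr2, and Ly6c2 stood at 0.0699 to 0.17. The list of Kupffer cells, microglia, peritoneal and red pulp macrophages, 4 of 16 detected with a median of 4.08 RPKM among them, summed to 73.5 to 77.8, and most of this sum came from 1 member. P2ry12 (4.39 ± 0.375), known from microglia, Treml4 and Hpgd were detected in it, and Timd4 and Vsig4 were not. Of 11 dendritic cell genes 3 were detected, Ccl22 (4.4 ± 0.554), Ccr7 and Clec9a (1.43 ± 0.104), and 2 more reached 1 RPKM in some libraries. Their sums ranged from 11.6 to 12.0, and Flt3 (0.216 to 0.327) and Zbtb46 (0.136 to 0.22) were under 1. Lung epithelium genes were detected in 5 of 16 cases and summed to 65.1 to 69.6. Epcam, the epithelial adhesion molecule gene, stood at 40.3, 45.5, 42.8 and 41.4, while Krt8 (0 to 0.252) and Krt18 (0 to 0.0954) were under 1. The surfactant protein gene Sftpc stood at 6.08, 5.02, 8.81 and 8.95, the club cell secretory gene Scgb1a1 at 9.08, 9.54, 4.21 and 7.56, and Sftpb (0.117 to 0.228) was under 1. Endothelial and stromal genes, 2 of 18 detected (Vwf, 3.75 ± 0.48, and Tagln, 2.57 ± 0.494), summed to 8.60 to 10.8, with Pecam1 at 0.124 to 0.209 and Col1a1 at 0 to 0.0919. Red cell and platelet genes summed to 1.84 to 4.79, with Pf4 (2.59 ± 1.04) alone detected. All 20 cell cycle genes were detected, Mki67 at 23.4, 21, 23.1 and 18.8 and Top2a at 11.4 ± 0.65, with sums of 158 to 194 over the list.

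**Figure D4:**
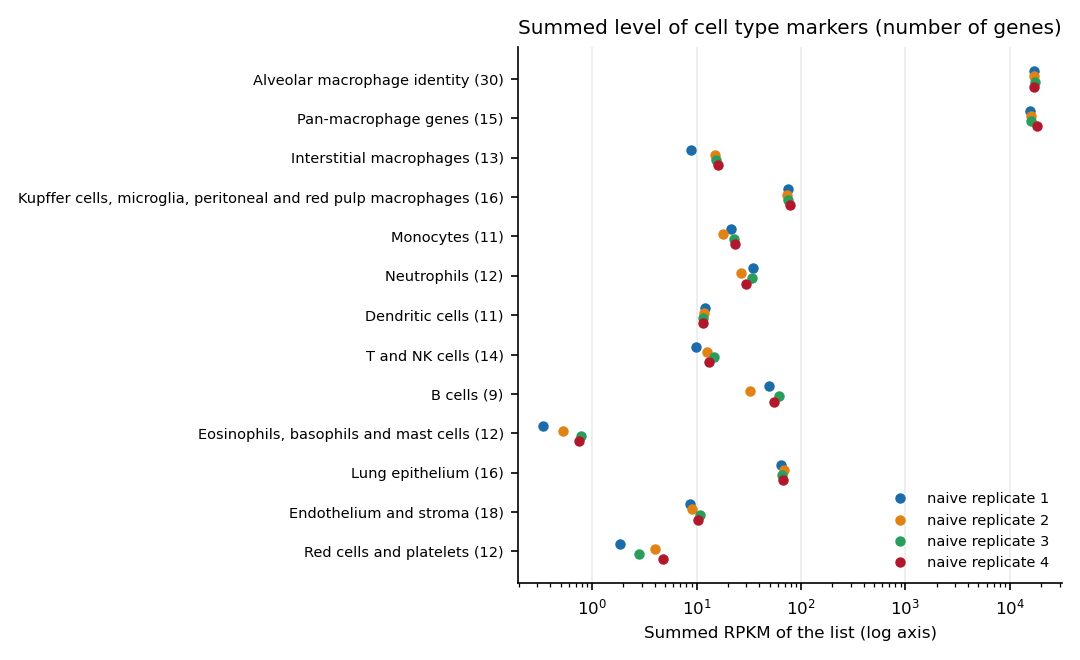
Summed RPKM (log axis) of the identity and other-cell marker lists, with the number of genes in brackets and a point for each naive library. The identity list lies at 16863 to 17215, and the highest sum of a list of other cells is 77.8.

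The spread between the 4 libraries was set against the spread that counting reads would give, since the recovered reads allow it. Over the 10091 detected genes the median coefficient of variation (CV, the SD as a percentage of the mean) was 7.38%, against 5.82% from counting, and the median ratio of SD to counting SD was 1.27. An SD over 2 times the counting SD was found for 1873 genes (18.6%). In simulated counts without added spread the median ratio was 0.856, and 0.414% of detected genes were over 2. The ratio was larger at higher levels, from a median of 1.09 at 1 to 3 RPKM to 1.65 at 30 to 100 RPKM and 8.71 for the 17 genes over 1000 RPKM, where counting error is smallest. For 265 detected genes, 38 of them protein-coding, at least 1 library held fewer than 10 reads.

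The largest ratios belonged to abundant genes and to a few with a wide spread. Lyz2 had a ratio of 30.5 at a CV of 8.4%. Ccr1l1, a chemokine receptor-like gene, stood at 16.1, 1.38, 27.8 and 51.5 RPKM, a CV of 87.5%, lowest in replicate 2 and highest in replicate 4. Its mean, 24.2 over all 4 libraries, was 15.1 without replicate 4. Txnip, a regulator of thioredoxin and glucose uptake, stood at 148, 149, 126 and 94.7, lowest in replicate 4. Cd74, the MHC class II invariant chain gene, stood at 110.3, 178, 128 and 179.7, and the class II genes H2-Aa (34.4, 55.3, 43.1 and 60.5) and H2-Ab1 (49, 70.6, 50.7 and 76.9), chosen after their values were seen, were likewise higher in replicates 2 and 4 than in 1 and 3. The heat shock genes Hspa8 (130.2, 173, 139.8 and 131) and Hsp90ab1 (232, 295, 245 and 232) were highest in replicate 2, as was Fkbp5 (10.3, 16.1, 10.3 and 7.12), a glucocorticoid-responsive gene chosen after its values were seen. Neat1, a nuclear long non-coding RNA, stood at 35.6, 25, 28.9 and 23.5, highest in replicate 1, and Sgk1, a kinase gene, at 58.9, 67.7, 74.2 and 79.4.

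Replicate 4, the library with the fewest reads, stood apart in several of these genes. Among the 1873 widely spread genes it was the lowest library for 38.3% (33.8% over all detected genes) and the highest for 28.1% (24.4% over all). Replicate 1 was the highest for 30.6% (27.1% over all) and the lowest for 25.8% (23.6% over all). Lars2, a mitochondrial synthetase gene, stood at 193, 135, 137 and 257, and the ribosomal RNA gene of mitochondria mt-Rnr2 at 257, 264, 286 and 408, both highest in replicate 4. Gm42418, a non-coding gene, took 0.211%, 0.160%, 0.145% and 0.283% of the reads in replicates 1 to 4, highest in replicate 4 and then in replicate 1, as for Lars2. Gm23935, at 0.0108%, 0.00771%, 0.00816% and 0.0143%, and mt-Rnr1, at 0.0140%, 0.0125%, 0.0139% and 0.0225%, were highest in replicate 4 as well, and these genes were chosen after their values were seen. Osm was highest there too. The share of reads in mitochondrial genes was 1.25% in replicate 4 and 1.04% in replicate 1, and the part of these RNAs in the other differences was not tested.

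The most even genes among those with a mean of at least 10 RPKM were Ski, a transcriptional co-regulator gene, at 30.1, 30.4, 30.4 and 30.3 (CV 0.407%), Uba1, the ubiquitin-activating enzyme gene, at 29.4, 29.7, 29.4 and 29.5 (CV 0.42%), Eef1e1 (CV 0.554%), Hnrnpa3 (CV 0.579%) and Atp6ap1 (CV 0.591%). Their SD was below the counting SD, with ratios from 0.0636 for Eef1e1 to 0.325 for Atp6ap1. These genes were picked for the smallest CV, so low ratios follow from the choice and are no trait of the genes. Among abundant genes Tyrobp had a ratio of 1.72. Mpeg1, the perforin-2 gene, stood at 863, 838, 836 and 869.7. Its CV of 2.02% was low but well above the 0.603% from counting. Hexa, with a CV of 1.19%, was below the 1.41% from counting.

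**Figure D5:**
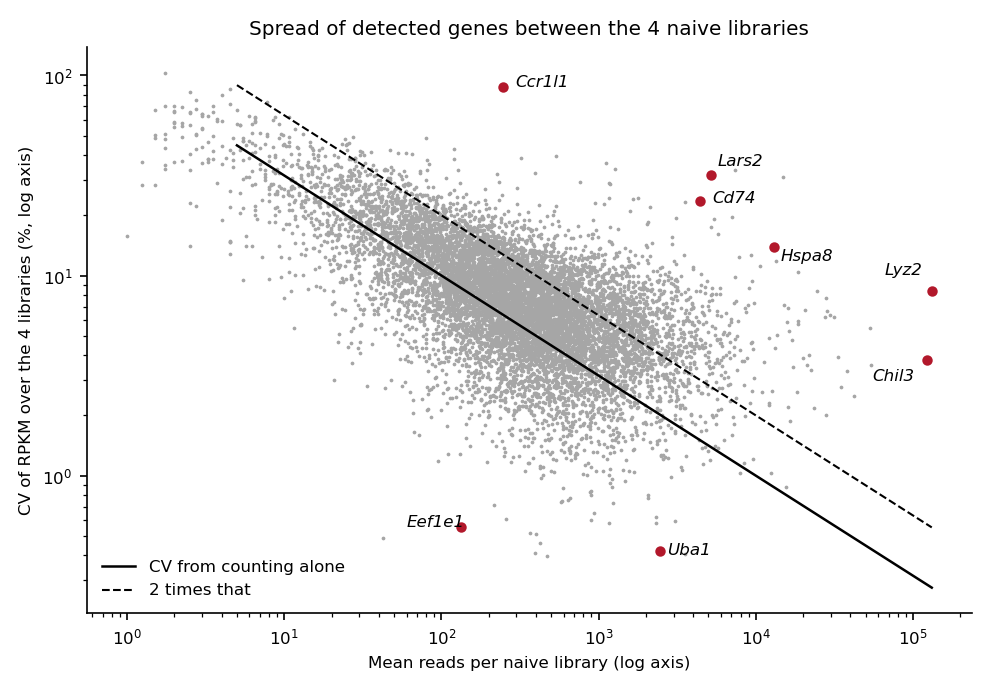
CV of RPKM over the 4 naive libraries (%, log axis) against mean reads per library (log axis) for the 10091 detected genes, with named genes in red. The solid line is the CV from counting alone and the dashed line 2 times that. Lyz2, Chil3, Lars2, Cd74, Hspa8 and Ccr1l1 lie above the dashed line, Uba1 and Eef1e1 below the solid one.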

How the data were processed

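Polyadenylated RNA isolated with the PicoPure kit was sequenced from standard Illumina libraries, per the labels. The build was mm10 and the tools named were bcl2fastq, TopHat2 and HTSeq, per the submitters' processing notes. Not given in the sources used here are versions, annotation and strand setting. The authors deposited RPKM per Ensembl gene, 1 column for each library. The 418 detected antisense genes cannot be told apart from their partners without the strand setting.

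Library totals, reads and gene lengths were recovered from the steps of the RPKM values over the 12 libraries, as the shortest length giving whole reads within 0.005 (99.998 to 99.9996% of each total), with Python 3.11.15, pandas 2.3.3 and numba 0.67.0. The steps were tested on simulated data. Symbols, types and merged exons came from GENCODE on the same assembly. Limits of 3 reads cover counting error only. No 2 libraries shared identical columns. The counting SD is the Poisson SD at the pooled rate of the gene.

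There is 1 group, so no test between groups was made, and Dixon's critical value was used only to look for single libraries that stood apart. The 49 lists hold 987 symbols, 985 in the table, and members, lists and rules were chosen with earlier results of these data known. Named are all identity genes, the 20 highest genes without clone names, up to 5 highest and 3 lowest members of each list, and the 15 widest and 5 most even genes from 10 RPKM; some of these are not reported here. Other settings were thresholds of 0.5, 2 and 5 RPKM, 3 of 4 libraries, the mean, equal library sums, median-ratio scaling, merged exon length, and each library left out; 3 were chosen after seeing the data.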

Additional observations from a re-analysis of the deposited data

Results flagged for a closer look

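Among 109 sets of 4 values examined (identity, highest and widest genes, and the sum of each list), 5 had a library whose gap to the nearest other exceeded Dixon's 95% critical value for 4 samples. The count found was close to the 1 in 20 that chance gives for independent sets. That rate does not hold as such here. The widest genes were chosen for their spread over the same libraries, and sums share genes with the single-gene sets. Lyz2 stood at 15570.5 RPKM in replicate 4 against 13031 to 13403 in the others. The sum of the pan-macrophage genes, which Lyz2 dominates, was 18302 in the same library against 15684 to 16038. Ear2 stood at 2011 in replicate 4 against 1741 to 1757. Cd2, a lymphocyte adhesion gene also known from alveolar macrophages, stood at 95.4 in replicate 3 against 105 to 106. The interstitial macrophage genes summed to 8.95 in replicate 1 against 15.2 to 16.1.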

How the results depend on the processing

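No paired analysis was possible because only the naive group is described and no groups are compared. The 10091 detected genes were 5535 at a threshold of 5 RPKM, and the 9006 protein-coding genes 5109. Under the other settings both counts stayed within 1.5 times, from 8407 to 11624 for all genes and from 7635 to 10564 for protein-coding genes, the upper ends being the rule of at least 10 reads in all 4 libraries, chosen after seeing the data. Leaving out a library gave 10185 to 10253 genes, 9055 to 9083 protein-coding genes and 590.0 to 593 list members, against 589. Per merged exon length 24 list genes were gained and 3 lost. The 28.3% of summed RPKM in the 50 highest genes became 29.8% over protein-coding genes, 26.9% without mitochondrial genes, 26.0% per merged exon length and 16.5% in reads, and 27.8 to 28.5% with a library left out. The median CV of 7.38% became 20.5% without a filter and 6.01% at a filter of 5 RPKM, and 6.49 to 7.44% with a library left out. The count of 1873 widely spread genes ranged from 1731 to 2237 with a library left out and was 2098 with equal library sums. The summed mean of the 30 identity genes, 17066 RPKM, became 20998 per merged exon length. Of 640 list and named genes with a mean of at least 1 RPKM, 353 moved by over 1.5 times on that scale, 283 of them upwards. With a library left out only Ccr1l1 did. At a 5 RPKM threshold 22 of the 49 lists had their count of detected members change by over 1.5 times, against 2 lists at 0.5 RPKM and 1 by the mean over the libraries. Genes near 1 RPKM rest on few reads where they are short, which limits calls at the threshold.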
